A study of Homo sapiens with 29 samples.

Results

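Skeletal muscle breaks down glucose and stored glycogen to fuel contraction, and 36 genes of these routes are described here in human myoblasts with and without siRNA against ZNF148. They comprise 3 glucose transporters, the enzymes of glycolysis from hexokinase to lactate dehydrogenase, the PFKFB enzymes that set the level of fructose 2,6-bisphosphate, and the enzymes that make and break glycogen. Each gene was measured by 1 probe, named through the RefSeq accession on the array, and where a gene had more than 1 probe the one with the highest mean in the authors' matrix was taken. Of the 36 genes, 35 had a named probe and all 35 were tested, among 22439 genes with a named probe and 18338 genes tested. The aldolase ALDOA had no probe named in this way and was not analysed here.

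LHCN-M2 is a human skeletal muscle myoblast line immortalized by telomerase and CDK4. Each culture received siRNA at 20 nM, either against ZNF148 or nontargeting, and RNA was measured on 29 one-colour arrays in 10 groups, whose arrays the labels call biological replicates. In growth media there were 3 arrays of each siRNA at 24 h, 3 of each at 48 h, and 3 with ZNF148 siRNA and 2 with nontargeting siRNA at 96 h. In differentiation media there were 3 arrays of each siRNA at 48 h and at 96 h. The cells were subconfluent at 24 h and confluent in all other groups, and all groups were transfected with an siRNA. The methods have the media changed 2 days after transfection, so the same hour in both media may not be the same time since transfection. All results come from 1 cell line and from siRNA of 1 supplier.

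Glucose enters a cell through transporters, is trapped by hexokinase, and is split and oxidized to pyruvate and lactate in a shared series of steps. Many of the steps are carried out by enzymes of more than 1 gene. As myoblasts fuse into myotubes, muscle isoforms such as beta-enolase (ENO3), muscle phosphoglycerate mutase (PGAM2), muscle glycogen phosphorylase (PYGM) and the insulin-regulated transporter GLUT4 (SLC2A4) are known to be switched on beside or in place of the isoforms that most tissues use. Many genes of the shared series are also known targets of hypoxia-inducible factor and of MYC.

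Values below are log2 quantile-normalized signals, and differences are log2 changes. A gene is called changed where limma's Benjamini-Hochberg adjusted p over all tested probes was under 0.05 and the change was over 2-fold. Levels of different probes are not compared, since probes differ in brightness. ZNF148 itself was lower with ZNF148 siRNA in all 5 comparisons, with changes of -1.53, -2.07 and -2.31 in growth media (24, 48, 96 h) and of -2.34 and -2.74 in differentiation media (48, 96 h), and the arrays of the siRNA groups did not overlap. The share of probes well above background ranged from 41.5% to 56.5% over the arrays. One array stood apart: nontargeting siRNA, 48 h, growth media, replicate 1 had a summed signal of 7 myotube markers of 443000, against 29100 and 23800 on the other 2 arrays of its group, and the main results that rest on it are given with and without it.

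Promoter sequence is shown for 4 members whose values carry the results, a pair of muscle isoforms (ENO3 and PGAM2) and a pair from the shared series (LDHA and PGK1). Each is the 250 bases before the annotated start in RefSeq (GRCh38.p14), printed in the direction of the gene. For ENO3 (chr17:4950302-4950551, plus strand, 1 of 2 annotated starts) and PGAM2 (chr7:44065568-44065817, minus strand), capitals mark CANNTG, the E-box core that MYOD1 and MYOG are known to bind.
ENO3: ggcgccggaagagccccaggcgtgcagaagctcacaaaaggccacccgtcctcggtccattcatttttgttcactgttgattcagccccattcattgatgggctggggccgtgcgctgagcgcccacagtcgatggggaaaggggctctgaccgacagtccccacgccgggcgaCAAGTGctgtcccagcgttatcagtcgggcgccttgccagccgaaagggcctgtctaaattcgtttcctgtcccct
PGAM2: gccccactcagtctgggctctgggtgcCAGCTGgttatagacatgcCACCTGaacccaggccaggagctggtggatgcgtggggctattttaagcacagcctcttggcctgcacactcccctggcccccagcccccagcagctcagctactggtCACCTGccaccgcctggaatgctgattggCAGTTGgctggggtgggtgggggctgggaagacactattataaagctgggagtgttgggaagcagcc
For LDHA (chr11:18394313-18394562, plus strand, 1 of 2 annotated starts) and PGK1 (chrX:78103998-78104247, plus strand), capitals mark ACGTG or GCGTG on either strand, cores known for hypoxia-inducible factor and, in the form CACGTG, for MYC.
LDHA: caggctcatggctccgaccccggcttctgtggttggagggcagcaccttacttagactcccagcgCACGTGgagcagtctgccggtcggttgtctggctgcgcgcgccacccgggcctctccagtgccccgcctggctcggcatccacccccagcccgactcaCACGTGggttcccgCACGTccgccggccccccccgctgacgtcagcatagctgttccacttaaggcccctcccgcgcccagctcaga
PGK1: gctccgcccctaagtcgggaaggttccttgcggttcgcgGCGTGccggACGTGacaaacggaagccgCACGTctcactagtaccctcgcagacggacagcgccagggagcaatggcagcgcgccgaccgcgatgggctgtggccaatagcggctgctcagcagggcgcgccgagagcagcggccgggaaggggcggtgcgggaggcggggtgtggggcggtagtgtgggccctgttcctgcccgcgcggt
The ENO3 window held 1 CANNTG and the PGAM2 window 4, the nearest 67 bases before the start. Capitals fell in 3 stretches of the LDHA window, nearest at 73 bases, and in 3 stretches of the PGK1 window. Over the 32 of 36 listed genes with a window in the table, 15 (46.9%) held ACGTG in at least 1 window, against 21.7% of all genes. Members often had several annotated starts, however, and by window the shares were 31% of 58 member windows and 18.5% of all windows. GCGTG, the other marked core, was in 19 members (59.4%) and 36.2% of all genes, but by window in 36.2% of member windows and 32.2% of all. CANNTG was in at least 1 window of 23 members (71.9%) and of 66.7% of all genes, but by window in 51.7% of member windows and 61.8% of all. GGGCGG, a GC box, was in 27 members (84.4%) and 46.2% of all genes, and in 60.3% of member windows and 42.6% of all. Motifs were searched on both strands, CACGTG counts as ACGTG on each strand, and a match describes the letters and not a bound site.

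At 24 h in growth media few members had changed, and those called were all lower. Among the 35 members 3 were called (5.55% of all genes tested were called, 2.46% higher and 3.08% lower), the neuronal enolase ENO2, the PFKFB enzyme PFKFB4 and the muscle phosphofructokinase PFKM. The median change of the members was -0.15, beside a median over all genes of 0.00. The siRNA groups did not overlap for 23 of the 35 members, as for 55.7% of all genes. ENO2 read 10.53, 10.62 and 10.54 with nontargeting siRNA and 8.13, 8.20 and 8.37 with ZNF148 siRNA, a fall that left the groups well apart. This was a change of -2.33 ± 0.13 (SE, n = 3 and 3, limma adjusted p = 4.27e-11). PFKFB4 read 11.03, 11.10 and 11.04 against 9.79, 9.84 and 9.79, a change of -1.25 ± 0.10 (adjusted p = 1.1e-08). PFKM, whose enzyme commits fructose 6-phosphate to glycolysis in muscle, read 13.67, 13.72 and 13.61 with nontargeting siRNA and 12.59, 12.73 and 12.63 with ZNF148 siRNA. Its change of -1.01 ± 0.07 (adjusted p = 3.51e-10) lay at the 2-fold limit, and when arrays were scaled to their 75th percentile it was -0.87, not over 2-fold, and the transporter SLC2A3 was called higher (1.07), so that 1 member was higher and 2 lower. SLC2A3 differed by 0.99 with the chosen scaling and by -0.03 at its other probe. Array weights, or leaving out nontargeting replicate 2 or ZNF148 siRNA replicate 1, likewise took PFKM to -0.99 and SLC2A3 to between 1.00 and 1.01. The muscle isoforms ENO3, PGAM2, PYGM, SLC2A4 and FBP2 were not called at 24 h, with changes of 0.09, 0.58, -0.40, 0.00 and -0.11. SLC2A4 and FBP2 were well above background on none of the 6 arrays at 24 h and PYGM on 1, so a change in these genes was not measurable there.

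**Figure D1:**
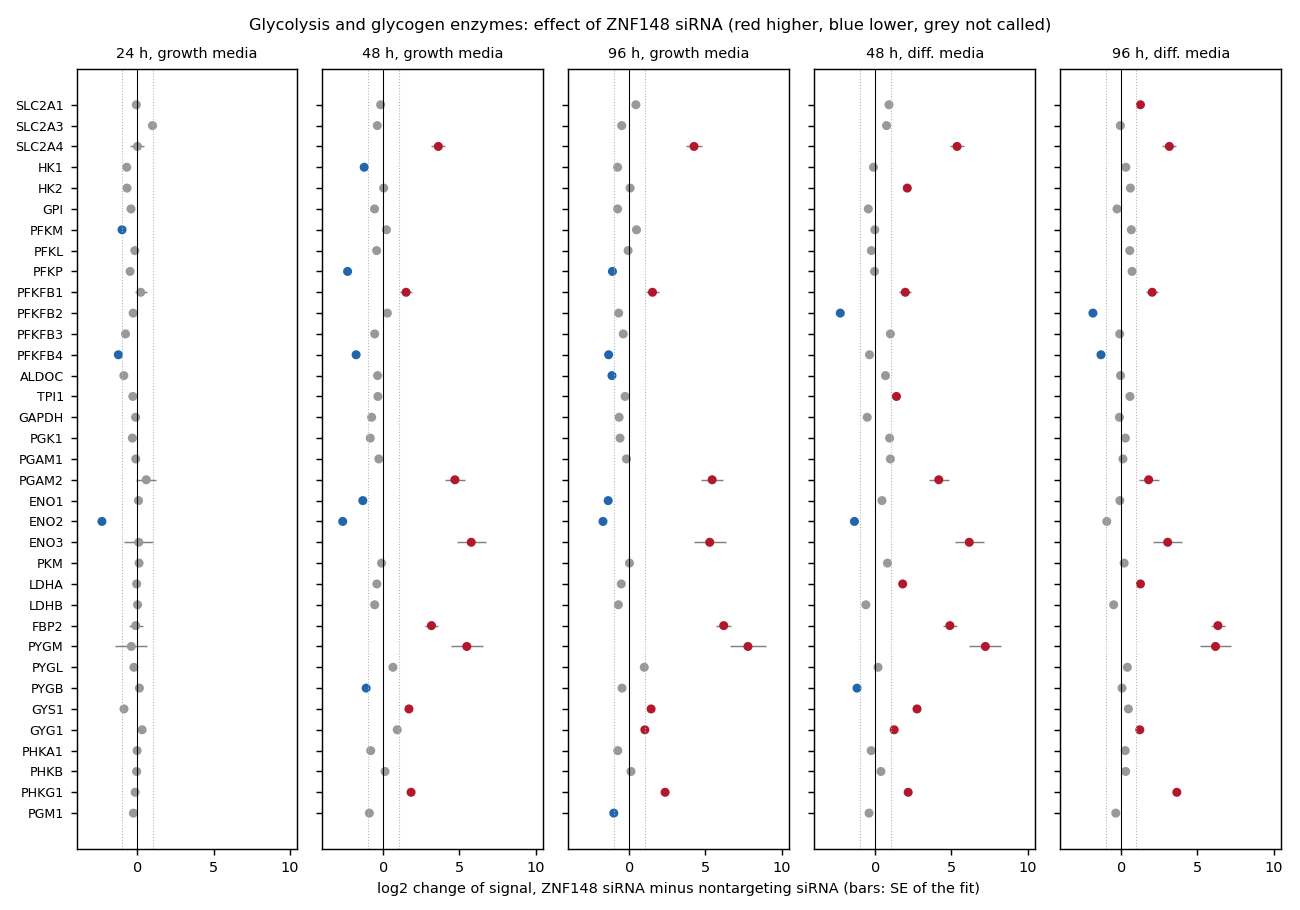
Log2 change of each of the 35 members with ZNF148 siRNA relative to nontargeting siRNA (x axis) in the 5 comparisons. Points are the fitted changes, bars their SE, dotted lines mark a 2-fold change, red and blue points were called higher and lower. The few called members at 24 h are all lower, and the largest changes at 48 h in both media and at 96 h in growth media are increases of PYGM, ENO3, PGAM2, SLC2A4 and FBP2. At 96 h in differentiation media FBP2 and PYGM have the largest increases, followed by PHKG1.

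By 48 h in growth media 14 of the 35 members were called, 8 higher and 6 lower (24% of all genes tested were called, 11.7% higher and 12.3% lower). The higher ones were the muscle enolase ENO3, muscle glycogen phosphorylase PYGM, muscle phosphoglycerate mutase PGAM2, the transporter SLC2A4, the muscle fructose bisphosphatase FBP2, the phosphorylase kinase subunit PHKG1, muscle glycogen synthase GYS1 and PFKFB1. Lower were ENO2, the platelet-type phosphofructokinase PFKP, PFKFB4, the ubiquitous enolase ENO1, hexokinase HK1 and brain glycogen phosphorylase PYGB. The median member change was -0.36, beside -0.05 over all genes. The groups did not overlap for 32 of the 35 members, as for 63% of all genes. At 96 h 15 members were called, 9 higher and 6 lower (24.8% of all genes, 12.3% higher and 12.5% lower), with a median of -0.28 beside -0.03 over all genes. There the groups did not overlap for 32 members and for 75.3% of all genes.

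Enolase, which makes phosphoenolpyruvate, showed an exchange of isoforms, with calls in both directions at 48 and 96 h in growth media. ENO3 read 15.92, 9.58 and 9.68 with nontargeting siRNA at 48 h and 17.45, 17.57 and 17.48 with ZNF148 siRNA. The groups did not overlap, but nontargeting replicate 1, the array that stood apart, lay more than 6 log2 units above the other 2 arrays. ENO3 was higher by 5.77 ± 0.94 (adjusted p = 2.31e-05), and by 7.87 (adjusted p = 3.78e-19) without that array. ENO1 moved the other way, from 15.59, 15.85 and 15.76 to 14.35, 14.32 and 14.48, a change of -1.35 ± 0.09 (adjusted p = 1.56e-10). ENO2 fell from 9.71, 10.27 and 10.29 to 7.48, 7.19 and 7.57, a change of -2.67 ± 0.13 (adjusted p = 6.46e-13). At 96 h the same directions held, with ENO3 at 11.45 and 11.54 on the 2 nontargeting arrays and 16.72, 16.79 and 16.84 with ZNF148 siRNA. Its change there was 5.28 ± 1.05 (adjusted p = 0.000249), with ENO1 at -1.39 ± 0.11 and ENO2 at -1.73 ± 0.15. The log2 difference of ENO3 minus ENO1 on an array was thus higher with ZNF148 siRNA by 7.12 at 48 h (9.29 without nontargeting replicate 1) and 6.68 at 96 h, with no overlap between siRNA groups, but by 0.02 at 24 h, where the groups overlapped.

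Phosphoglycerate mutase acts just before enolase, and its muscle isoform was called. PGAM2 read 10.23, 5.96 and 5.96 with nontargeting siRNA and 11.98, 12.03 and 12.24 with ZNF148 siRNA at 48 h, and at 96 h 6.86 and 6.93 against 12.25, 12.30 and 12.45. Replicate 1 was again the high array among the nontargeting ones, and the groups did not overlap at either time. The changes were 4.70 ± 0.66 (adjusted p = 3.31e-06; 6.13 without replicate 1) and 5.44 ± 0.73 (adjusted p = 2.4e-06). PGAM1, the isoform of most other tissues, differed by -0.30 ± 0.07 at 48 h and -0.19 ± 0.08 at 96 h, changes that passed the adjusted p but not the 2-fold limit. Its arrays at 48 h read 15.28, 15.39 and 15.29 with nontargeting siRNA and 15.00, 14.93 and 15.11 with ZNF148 siRNA. PGAM2 minus PGAM1 was higher by 5.01 at 48 h (6.45 without replicate 1) and 5.63 at 96 h.

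At the phosphofructokinase step, which commits sugar to glycolysis, the shift came from a loss of PFKP rather than a called gain of PFKM. PFKP read 14.14, 14.61 and 14.60 with nontargeting siRNA and 12.13, 11.99 and 12.17 with ZNF148 siRNA at 48 h, with no overlap. The change was -2.35 ± 0.08 (adjusted p = 9.24e-15), and its other probe gave -2.26. At 96 h it was 14.27 and 14.28 against 13.10, 13.20 and 13.19, a change of -1.11 ± 0.09 (adjusted p = 3.77e-09). PFKM read 13.44, 13.32 and 13.36 against 13.47, 13.66 and 13.60 at 48 h, a change of 0.20 ± 0.07, and differed by 0.47 ± 0.07 at 96 h. The effect on PFKM at 96 h thus lay 1.48 ± 0.10 above that at 24 h (adjusted p = 1.65e-10), although arrays at 24 h were on another slide and scan. The liver isoform PFKL differed by -0.44 and -0.08. PFKM minus PFKP was higher by 2.55 at 48 h (2.74 without replicate 1) and 1.58 at 96 h, but differed by -0.54 at 24 h.

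Of the PFKFB enzymes, which make and remove the activator of phosphofructokinase, PFKFB4 stayed lower. It read 10.29, 10.63 and 10.63 with nontargeting siRNA and 8.65, 8.59 and 8.94 with ZNF148 siRNA at 48 h, a change of -1.79 ± 0.10 (adjusted p = 7.38e-12), and changed by -1.36 ± 0.11 at 96 h. PFKFB1 was called higher at 48 h (1.49 ± 0.38, adjusted p = 0.00246) and 96 h (1.52 ± 0.43), reading 2.30, 2.11 and 2.10 against 3.75, 3.34 and 3.89 at 48 h. None of these 6 arrays was well above background for PFKFB1, so no fold can be given, and with normexp background correction it was not called at 48 h (0.18, adjusted p = 0.067) or at any other time. PFKFB3 and PFKFB2 were not called at 48 or 96 h in growth media, but the other PFKFB2 probe gave 2.16 at 48 h (adjusted p = 0.000427). With the mean of its probes PFKFB2 was called higher there (1.21, adjusted p = 0.0001). Hexokinase HK1, the isoform most tissues use to trap glucose, fell from 12.44, 12.72 and 12.78 to 11.42, 11.31 and 11.45 at 48 h, a change of -1.26 ± 0.09 (adjusted p = 2.73e-10). HK2, the isoform of insulin-sensitive tissues, read 11.79, 11.64 and 11.88 against 11.85, 11.78 and 11.75, with a change of 0.02 ± 0.10 and overlapping groups. At 96 h HK1 differed by -0.77 ± 0.10, short of 2-fold.

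The transporter SLC2A4 and the gluconeogenic FBP2 rose from signals near background, while the other 2 transporters were not called. SLC2A4 read 5.09, 2.11 and 2.08 with nontargeting siRNA and 6.62, 6.73 and 6.75 with ZNF148 siRNA at 48 h, and 2.11 and 2.09 against 6.26, 6.37 and 6.42 at 96 h. At 96 h it was not well above background on either nontargeting array, and the increase was at least 4.71-fold (fitted change 4.25 ± 0.52, adjusted p = 5.76e-07). This bound holds for the chosen processing, and the lowest fitted change over the alternatives was 1.20. The fitted change at 48 h was 3.61 ± 0.46 (adjusted p = 1.02e-06; 4.59 without replicate 1), with 1 of 3 nontargeting arrays above background, again replicate 1. FBP2, which reverses the phosphofructokinase step in muscle, read 5.16, 2.34 and 2.24 against 6.15, 6.52 and 6.56 at 48 h and 2.18 and 2.17 against 8.25, 8.56 and 8.30 at 96 h. At 48 h the change was 3.16 ± 0.45 (adjusted p = 4.28e-06; 4.10 without replicate 1), and at 96 h the increase was at least 19.1-fold (adjusted p = 1.77e-09). With ZNF148 siRNA, FBP2 was 1.96 ± 0.45 log2 units higher at 96 than at 48 h (adjusted p = 0.00268). The general transporter SLC2A1 read 12.26, 12.36 and 12.45 against 12.29, 12.13 and 12.12 at 48 h, overlapping groups with a change of -0.18 ± 0.14.

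Of the 9 members that make or break glycogen, 3 were called higher (PYGM, GYS1 and PHKG1) and 1 lower (PYGB) at 48 h in growth media, and 4 higher and 1 lower at 96 h. Over all genes 11.7% were called higher and 12.3% lower at 48 h, and 12.3% and 12.5% at 96 h. PYGM, which releases glucose 1-phosphate from glycogen in muscle, read 8.77, 4.55 and 2.29 with nontargeting siRNA and 10.48, 10.49 and 11.07 with ZNF148 siRNA at 48 h. The nontargeting arrays spread over more than 6 log2 units, and 1 of them, replicate 1, was well above background. The change was 5.48 ± 1.05 (adjusted p = 0.000146), and 7.26 (adjusted p = 1.11e-07) without replicate 1. At 96 h PYGM read 2.78 and 2.44 against 10.37, 10.31 and 10.51, at least 77.8-fold higher (adjusted p = 9.8e-06). PYGB, the brain isoform, fell at 48 h from 12.81, 13.23 and 13.02 to 11.89, 11.83 and 11.96, a change of -1.13 ± 0.09 (adjusted p = 1.83e-09), and differed by -0.48 ± 0.10 at 96 h. The liver isoform PYGL differed by 0.63 ± 0.07 and 0.98 ± 0.08, upward but short of 2-fold.

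On the side of synthesis, GYS1 read 13.48, 12.55 and 12.57 against 14.53, 14.44 and 14.67 at 48 h, a rise of 1.68 ± 0.16 (adjusted p = 1.31e-08; 1.99 without replicate 1), and of 1.43 ± 0.18 at 96 h. At 24 h GYS1 had differed by -0.88 ± 0.16, and its effect at 96 h lay 2.32 ± 0.23 above that at 24 h (adjusted p = 8.92e-08). GYG1, glycogenin, the protein primer of glycogen, was called higher at 96 h (1.02 ± 0.08, adjusted p = 2.34e-09), reading 11.38 and 11.32 against 12.38, 12.34 and 12.39. With scaling to the 75th percentile, or without nontargeting replicate 2 at 96 h, GYG1 was at 0.99 and not called. At 48 h its change was 0.91 ± 0.08 with all arrays, and 1.04 and called without replicate 1. PHKG1, the catalytic subunit of the kinase that activates phosphorylase, rose from 6.20, 5.79 and 5.54 to 7.68, 7.60 and 7.71 at 48 h, by 1.82 ± 0.18 (adjusted p = 2.98e-08), and by 2.35 ± 0.20 at 96 h. Its partner subunits PHKA1 and PHKB differed by -0.83 and 0.11 at 48 h and were not called, although the other PHKA1 probe gave -1.69 (adjusted p = 6.61e-05). That probe also gave -1.30 at 24 h and -1.33 at 96 h in growth media. In differentiation media it gave -3.30 at 48 h (adjusted p = 3.85e-09) and -0.84 at 96 h, while the chosen PHKA1 probe was not called in any of these comparisons. PGM1, which joins glycogen breakdown to glycolysis, read 14.34 and 14.28 against 13.24, 13.30 and 13.33 at 96 h, a change of -1.02 (adjusted p = 3.19e-11) at the 2-fold limit. The neural aldolase ALDOC read 8.71 and 8.74 against 7.63, 7.60 and 7.52, a change of -1.14 ± 0.13 (adjusted p = 1.96e-07).

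Several shared steps were lower by less than 2-fold in growth media. GAPDH, which oxidizes glyceraldehyde 3-phosphate, differed by -0.77 ± 0.06 at 48 h and -0.67 ± 0.07 at 96 h, and PGK1, which then makes ATP, by -0.86 ± 0.06 and -0.61 ± 0.07. GPI, TPI1, LDHA and LDHB differed by -0.58, -0.36, -0.43 and -0.57 at 48 h, each with adjusted p under 0.05. Pyruvate kinase PKM differed by -0.12 ± 0.13, with overlapping groups. With no fold threshold 30 of 35 members passed the adjusted p at 48 h and 30 at 96 h, 18 of them lower at each time. Over all genes 58.2% passed at 48 h and 56.6% at 96 h.

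**Figure D2:**
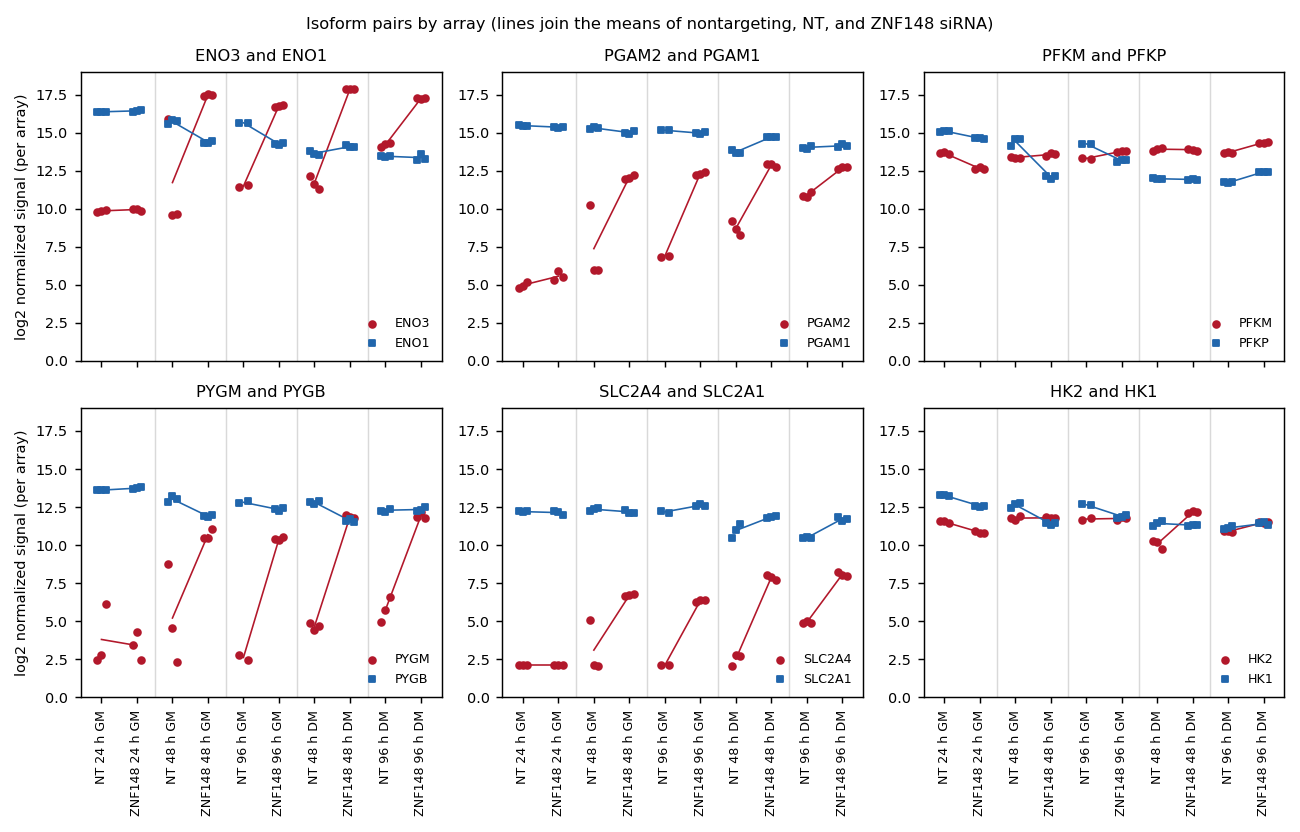
Log2 normalized signal on every array (y axis) in the 10 groups (x axis, NT for nontargeting siRNA, GM and DM for growth and differentiation media) for 6 isoform pairs, the muscle isoform or HK2 in red and the other isoform in blue. Lines join group means, and the height of one gene against the other has no meaning since probes differ. ENO3, PGAM2, PYGM and SLC2A4 rise with ZNF148 siRNA from 48 h, and 1 nontargeting array at 48 h in growth media lies high for each of these genes.

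Markers of myotubes moved with these muscle isoforms. Of 8 listed markers 7 had a probe. At 48 and at 96 h in growth media 6 of them (MYOG, MYH3, MYH8, CKM, TNNT3 and TNNC2) were called higher (11.7% and 12.3% of all genes). Their summed signal ranged from 23800 to 443000 with nontargeting siRNA and from 914000 to 953000 with ZNF148 siRNA at 48 h, and from 30300 to 30700 against 1040000 to 1060000 at 96 h. At 24 h the ranges were 17700 to 18600 and 17100 to 18600, with MYH8, CKM and TNNT3 not well above background on any array of either group. The part of these cells in the isoform changes was not tested, and in RNA from whole cultures more cells of a type and more RNA per cell cannot be told apart. Of markers of other cells, EPCAM was not well above background on any growth-media array, and PLIN1 and LEP on none of the 29. In every group 2 of 6 epithelial and 1 of 6 adipocyte markers were well above background on all arrays. For endothelial markers this number ranged from 3 to 6 of 6 by group, and for leukocyte markers from 1 to 3 of 5. The leukocyte marker CD14 changed by -3.50 at 48 h and -4.28 at 96 h, ITGAM was called higher at 48 h and the epithelial CDH1 at 96 h, the latter 2 each well above background on 1 of 3 arrays with ZNF148 siRNA. The endothelial marker CLDN5 was called higher and KDR lower at 48 and 96 h, and PECAM1 lower at 96 h. The myoblast markers DES, NCAM1 and CDH15 were called higher and MYF5 lower at both 48 and 96 h, and MYOD1 was called higher at 24 and 48 h.

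Differentiation media alone, with nontargeting siRNA, lowered much of glycolysis. At 48 h 16 members were called, 15 lower and 1 higher (16% of all genes tested were called, 8.25% lower and 7.79% higher), and the median member change was -0.69 beside 0.02 over all genes. Without nontargeting replicate 1 in growth media the median member change was -0.52. At 96 h 16 were called, 13 lower and 3 higher (15.1% of all genes, 8.27% lower and 6.82% higher), with a median of -0.62 beside 0.00. No slide carried arrays of both media for nontargeting siRNA at 96 h. The media groups did not overlap for 25 members at 48 h (52.3% of all genes) and 31 at 96 h (66.6%). Lactate dehydrogenase A turns pyruvate to lactate. LDHA read 16.23, 16.39 and 16.38 in growth media and 13.86, 13.83 and 13.82 in differentiation media at 48 h. That is a change of -2.50 ± 0.06 (adjusted p = 1.06e-17), and its other probe gave -2.58. PGK1 read 16.19, 16.37 and 16.43 against 14.39, 14.28 and 14.23, a change of -2.03 ± 0.06 (adjusted p = 2.87e-16). No array of one media overlapped the other for either gene.

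Lower calls at 48 h covered uptake and most steps down to lactate. They were the transporters SLC2A1 (-1.40) and SLC2A3 (-2.23), the hexokinases HK1 (-1.22) and HK2 (-1.69), PFKP (-2.47), PFKFB3 (-1.82) and PFKFB4 (-1.83). Further down the route they were TPI1 (-1.61), PGK1, PGAM1 (-1.58), ENO1 (-2.08), ENO2 (-2.37), PKM (-1.48) and LDHA. GYS1 (-1.02) was also called, but with -0.72 it was short of 2-fold without nontargeting replicate 1. GAPDH, GPI and PFKL differed by -0.28, -0.16 and -0.09, and LDHB, the isoform of oxidative tissues, by 0.16 ± 0.06 (adjusted p = 0.0572). LDHA minus LDHB therefore fell by 2.65 at 48 h (by 2.64 without nontargeting replicate 1 in growth media) and by 2.66 at 96 h, without overlap. PFKFB2 was the 1 member called higher at 48 h (1.46 ± 0.08, adjusted p = 5.69e-12), while its other probe differed by 0.94 (adjusted p = 0.117).

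Without ZNF148 knockdown, several muscle isoforms were higher in differentiation than in growth media. At 96 h PGAM2 differed between media by 4.00 ± 0.73 (adjusted p = 0.000164), reading 6.86 and 6.93 in growth and 10.86, 10.76 and 11.08 in differentiation media. SLC2A4 was at least 1.74-fold and PYGM at least 3.09-fold higher, the latter with an adjusted p of 0.0431 that lay over 0.05 in several alternative fits. With normexp background correction their changes were 0.62 and 0.74, below these bounds, and neither was called. Without nontargeting replicate 1 at 48 h in growth media the fitted PYGM change was 3.12 (adjusted p = 0.00321). FBP2, well above background on no array of either group, was called in that fit (1.22) but not with all arrays. ENO3 read 11.45 and 11.54 against 14.04, 14.23 and 14.36, groups that did not overlap, with a change of 2.71 ± 1.05 (adjusted p = 0.0515), and 2.71 (adjusted p = 8.51e-12) without nontargeting replicate 1 at 48 h, whose spread enters the fit. At 48 h PGAM2 and ENO3 differed by 1.33 and -0.02, not called, but by 2.76 and 2.08, both called, without that array. Between 48 and 96 h in differentiation media with nontargeting siRNA, 5 members were called, all higher (9.98% of all genes, 5.76% higher and 4.22% lower). They were GYS1 (1.63 ± 0.16), ENO3 (2.50 ± 0.94), PGAM2 (2.19 ± 0.66), SLC2A4 (at least 1.94-fold) and FBP2, the last not well above background on any of those arrays. The myotube markers had a summed signal of 36200 to 47500 at 48 h and 138000 to 169000 at 96 h in these nontargeting cultures. At 96 h 5 of 7 were called higher than in growth media (6.82% of all genes). Their part in the isoform values was not tested. With ZNF148 siRNA, 3 members were called between 48 and 96 h in growth media (5.95% of all genes, 4.13% higher and 1.82% lower), FBP2 and PFKP (1.07 ± 0.08) higher and ALDOC (-1.01 ± 0.11) lower. In differentiation media 3 were called (8.07% of all genes, 4.34% higher and 3.73% lower), FBP2 (2.66 ± 0.45) and PHKG1 higher and ALDOC (-1.60 ± 0.11) lower.

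With ZNF148 siRNA in differentiation media the muscle isoforms were again higher, and several of the shared steps were higher too. At 48 h 15 members were called, 12 higher and 3 lower (32.5% of all genes tested, 15.2% higher and 17.4% lower), and the median was 0.74 beside -0.05 over all genes. The siRNA groups did not overlap for 30 members (70.4% of all genes). ENO3 read 12.17, 11.65 and 11.30 with nontargeting siRNA and 17.87, 17.88 and 17.86 with ZNF148 siRNA, a rise of 6.17 ± 0.94 (adjusted p = 7.18e-06). PYGM read 4.86, 4.41 and 4.67 against 11.98, 11.87 and 11.76, a rise of 7.23 ± 1.05 (adjusted p = 3.68e-06). Both were apart on all arrays, as were PGAM2 (4.17), SLC2A4 (at least 15.2-fold), FBP2 (at least 8.77-fold), GYS1 (2.74) and PHKG1 (2.16). PFKFB1 was called (1.97) but was well above background on 1 of 3 arrays with ZNF148 siRNA. Of the 7 myotube markers 6 were called higher at 48 h and 3 at 96 h (15.2% and 10.5% of all genes). Their summed signals were 36200 to 47500 against 1170000 to 1230000 at 48 h and 138000 to 169000 against 1340000 to 1370000 at 96 h. The part of these markers in the changes of the members was not tested.

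Among the shared steps LDHA rose from 13.86, 13.83 and 13.82 to 15.67, 15.66 and 15.57 at 48 h, by 1.80 ± 0.06 (adjusted p = 3.26e-16). HK2 rose from 10.29, 10.17 and 9.76 to 12.10, 12.22 and 12.20, by 2.10 ± 0.10 (adjusted p = 5.54e-14), and TPI1, which interconverts the triose phosphates, from 14.76, 14.48 and 14.41 to 15.92, 16.02 and 15.88, by 1.39 ± 0.09 (adjusted p = 9.56e-12). The levels in these arrays lay below or near those of growth media for LDHA and TPI1 and above them for HK2. SLC2A1, PGK1, PGAM1 and PKM differed by 0.90, 0.94, 0.99 and 0.80, each with adjusted p under 0.05 and short of 2-fold. GAPDH differed in the other direction, by -0.53 ± 0.06. LDHB, at -0.62 ± 0.06, was also lower, so LDHA minus LDHB rose by 2.42. PFKFB2 fell from 9.30, 9.33 and 9.28 to 7.03, 6.91 and 7.08, by 2.30 (adjusted p = 1.74e-15), yet its other probe differed by -0.05. ENO2 and PYGB were lower by 1.37 and 1.20 on the log2 scale.

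At 96 h in differentiation media 12 members were called, 10 higher and 2 lower (23.4% of all genes, 10.5% higher and 12.8% lower), with a median of 0.30 beside -0.06 and no overlap for 27 members (65.8% of all genes). FBP2 was at least 49.9-fold higher, reading 3.34, 3.36 and 3.52 with nontargeting siRNA and 9.86, 9.55 and 9.86 with ZNF148 siRNA. PHKG1 rose from 5.20, 5.49 and 5.19 to 8.73, 9.21 and 8.90, by 3.65 ± 0.18 (adjusted p = 5.34e-13), and with ZNF148 siRNA its level at 96 h was above that at 48 h by 1.04 ± 0.18 on the log2 scale. ENO3 (3.05 ± 0.94, adjusted p = 0.00994) and PGAM2 (1.80 ± 0.66, adjusted p = 0.0274) were called. PGAM2 read 10.86, 10.76 and 11.08 with nontargeting siRNA and 12.59, 12.72 and 12.78 with ZNF148 siRNA, with no overlap. Leaving out nontargeting replicate 1 or 2 or ZNF148 siRNA replicate 2 or 3 took its adjusted p to between 0.06 and 0.0683. Leaving out nontargeting replicate 1 at 48 h in growth media instead gave 1.80 for PGAM2 (adjusted p = 3.12e-08). LDHA (1.26 ± 0.06), SLC2A1 (1.26 ± 0.14) and GYG1 (1.22 ± 0.08) were higher, and PFKFB4 (-1.33 ± 0.10) and PFKFB2 (-1.86 ± 0.08) lower. The other PFKFB2 probe differed by -0.07 (adjusted p = 0.938), and with the mean of its probes PFKFB2 was at -0.96 and not called.

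**Figure D3:**
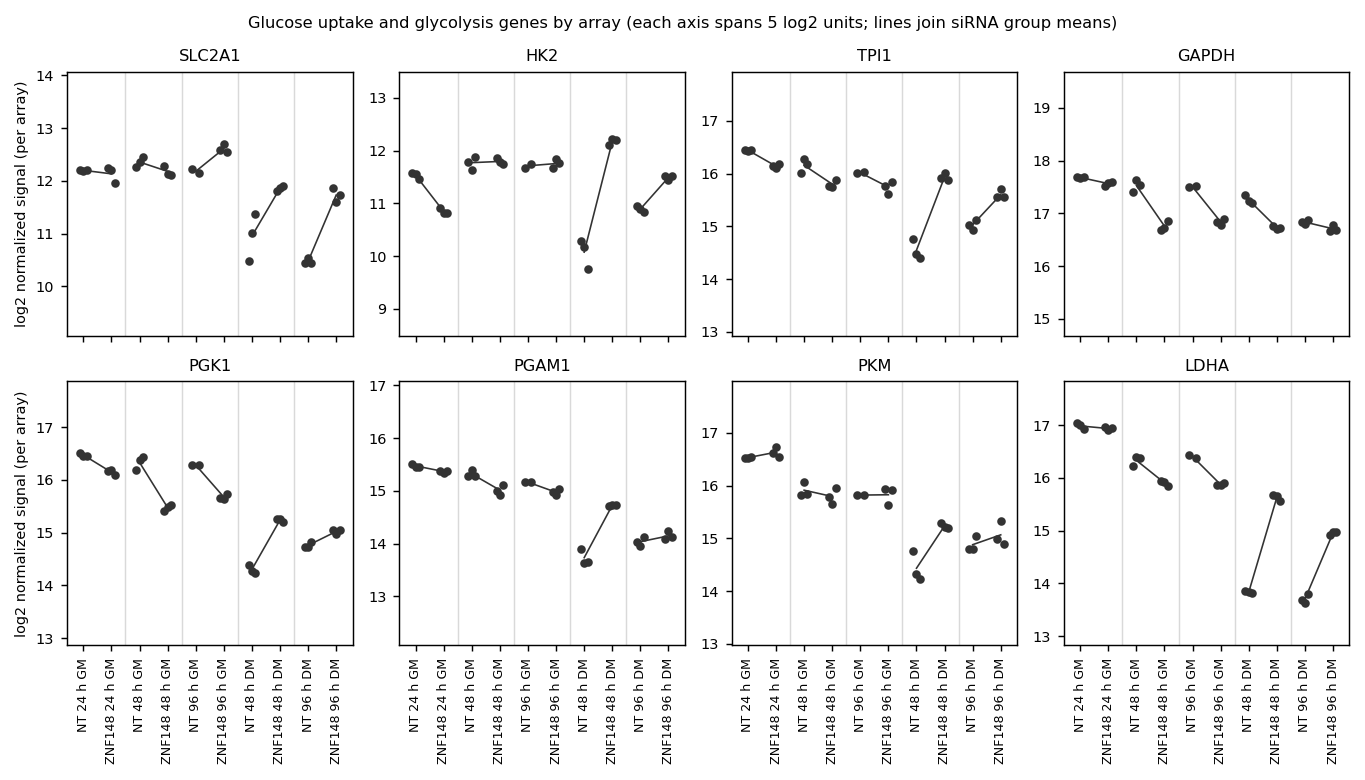
Log2 normalized signal on every array (y axis, spanning 5 log2 units in each panel) in the 10 groups (x axis, NT for nontargeting siRNA, GM and DM for growth and differentiation media) for 8 genes of glucose uptake and the shared steps of glycolysis. Lines join the means of the siRNA groups. LDHA, TPI1, PGK1, PGAM1, PKM and HK2 are low with nontargeting siRNA at 48 h in differentiation media and higher with ZNF148 siRNA, while GAPDH is lower with ZNF148 siRNA in growth media from 48 h and in differentiation media at 48 h.

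The effect of ZNF148 siRNA thus depended on the media for many members, and the difference itself was tested. At 48 h 18 members were called for a different effect, 17 of them more positive in differentiation media (17.2% of all genes were called, 8.15% more positive and 9.1% less). For LDHA the effect was -0.43 in growth and 1.80 in differentiation media, a difference of 2.22 ± 0.08 (adjusted p = 5e-14). PGK1 went from -0.86 to 0.94, a difference of 1.80 ± 0.09 (adjusted p = 1.92e-12), and ENO1 from -1.35 to 0.44, a difference of 1.79 ± 0.13. PFKP, lower by 2.35 in growth media, differed by -0.05 in differentiation media, where its level was already low with nontargeting siRNA (12.01, 11.96 and 11.97) and the groups overlapped. The 1 member with a more negative effect was PFKFB2 (-2.55 ± 0.12), with the disagreement of its probes noted above.

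For the muscle isoforms the calls of a media difference at 48 h changed with the arrays and settings used. With all arrays SLC2A4 (1.76, adjusted p = 0.0432) and FBP2 (1.74, adjusted p = 0.0412) were called more positive in differentiation media, and ENO3 (0.40) and PGAM2 (-0.53) were not called. SLC2A4 and FBP2 were well above background on 1 of 3 nontargeting arrays in growth media and on none in differentiation media, so that their differences have no exact size, and their calls were lost in 16 of 24 and 14 of 23 alternative fits. Without nontargeting replicate 1 at 48 h in growth media SLC2A4, FBP2 and GYS1 lost their calls, short of 2-fold (0.77, 0.78 and 0.75), and ENO3 (-1.70) and PGAM2 (-1.95) were called less positive. In that fit 17 members were called, 14 more positive and 3 less (18.6% of all genes were called). At 96 h 9 members were called, 7 more positive and 2 less (12.5% of all genes, 5.57% more positive and 6.94% less), and LDHA was again among them (1.79 ± 0.09, adjusted p = 8.77e-12) with PFKP (1.82 ± 0.13, adjusted p = 1.6e-09). PGAM2 had the smaller effect in differentiation media (-3.64 ± 0.98, adjusted p = 0.0089), where its level with nontargeting siRNA was higher than in growth media. Without nontargeting replicate 1 at 48 h in growth media, whose spread enters the fit, 11 members were called at 96 h, 7 more positive and 4 less (13.8% of all genes). The added ones were SLC2A4 (-1.08) and ENO3 (-2.23, adjusted p = 3.85e-08).

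**Figure D4:**
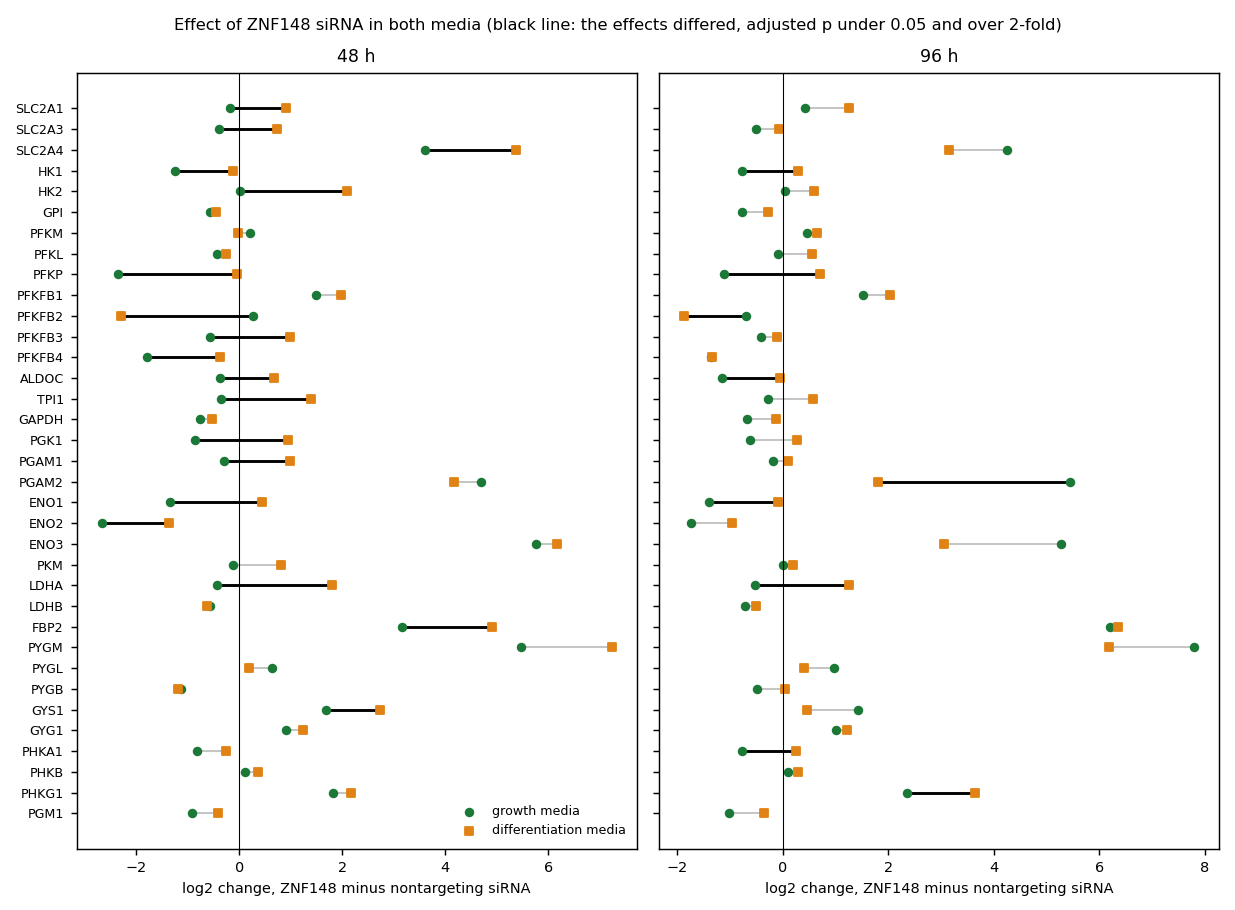
Log2 change with ZNF148 siRNA (x axis) for the 35 members in growth media (green circles) and differentiation media (orange squares) at 48 h and 96 h. A black line joins members whose effects were called different between media. At 48 h 17 of the 18 black lines run to the right, toward a higher value in differentiation media, and only that of PFKFB2 to the left.

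Genes around these routes were read from lists of neighbouring steps. Of 20 other glycogen genes, 7 were called higher and 1 lower at 48 h in growth media (median 0.68), where 11.7% of all genes were called higher and 12.3% lower, and 9 and 1 at 96 h in differentiation media (median 0.91), beside 10.5% and 12.8% of all genes. The second glycogenin GYG2 rose by 3.19 ± 0.38 (adjusted p = 4.03e-07) and PGM5, a relative of phosphoglucomutase, by 2.97 ± 0.38. The branching enzyme GBE1 was called lower in all 4 comparisons at 48 and 96 h. At both 48 and 96 h in growth media 7 of these genes were called higher, among them PPP1R3A and PPP1R3C, which target a phosphatase to glycogen. Of 7 pentose phosphate genes none was called higher with ZNF148 siRNA, and 2 and 1 were called lower at 48 and 96 h in growth media. In differentiation media 3 were called lower at each time. Over all genes 12.3%, 12.5%, 17.4% and 12.8% were called lower in these 4 comparisons. Transketolase TKT changed by -1.04 ± 0.10 (adjusted p = 1.1e-08) at 48 h in growth media. At 24 h TKT differed by 0.77, upward but short of 2-fold, and no gene of the list was called. TKT changed by -2.91 at 48 h in differentiation media.

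Where pyruvate enters mitochondria, 4 of 14 genes were called higher and 2 lower at 48 h in growth media, beside 24% of all genes called, and 8 and 2 at 48 h in differentiation media, beside 32.5%. The pyruvate carrier MPC2 rose by 1.57 ± 0.13 (adjusted p = 2.06e-09) and pyruvate carboxylase PC by 2.08 ± 0.21, while PDK3, a kinase that turns pyruvate dehydrogenase off, changed by -2.47 ± 0.26 (adjusted p = 5.95e-08). Among 15 other transport genes 3 were called higher and 2 lower at 48 h in growth media, beside 24% of all genes called. TXNIP, which limits glucose uptake, changed by -1.76 ± 0.12 (adjusted p = 7.75e-11), and was called lower in all 5 ZNF148 siRNA comparisons, with a change of -3.17 at 48 h in differentiation media. The lactate exporter SLC16A3 differed by -1.01 at 48 h in growth media and -2.47 in differentiation relative to growth media. TBC1D1, a regulator of SLC2A4 traffic, rose by 1.31 ± 0.12.

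Targets of hypoxia-inducible factor outside the routes were read from a list of 14 genes. Of these, 6 were called lower and 1 higher with ZNF148 siRNA at 48 h in growth media (median -0.71) and 8 and 1 at 96 h (median -1.11). In differentiation media ZNF148 siRNA gave 4 lower and 3 higher at 48 h (median -0.50) and 3 and 3 at 96 h (median 0.10). Differentiation media with nontargeting siRNA lowered 9 and raised 1 at 48 h (median -1.65) and lowered 10 at 96 h (median -2.11). Over all genes 24%, 24.8%, 32.5%, 23.4%, 16% and 15.1% were called in these comparisons, in that order. VEGFA changed by -2.63 ± 0.14 (adjusted p = 1.6e-12) and NDRG1 by -2.46 ± 0.11 (adjusted p = 2.17e-13) with ZNF148 siRNA at 48 h in growth media, and CA12 by -4.24 ± 0.68. In differentiation media at 48 h VEGFA differed by -0.56 and NDRG1 by -0.45 with ZNF148 siRNA, and the 3 called higher were ANKRD37, EGLN3 and P4HA1. The part of hypoxia-inducible factor in the values of the members was not tested. Of 19 regulators, 4 were called higher and 1 lower at 48 h in growth media, also beside 24% of all genes. MLXIPL, the glucose-sensing factor ChREBP, was called higher already at 24 h (2.48 ± 0.45, adjusted p = 0.000245) and differed by 3.34 ± 0.45 at 48 h, and the AMP-activated kinase subunits PRKAB2 and PRKAA2 rose by 2.46 ± 0.27 and 1.42 ± 0.25. HIF1A was the regulator called lower at 48 h. Among 15 other glycolysis genes 1 was called higher and 1 lower at 48 h, the mitochondrial PCK2 (1.13 ± 0.14) and the hexokinase-like HKDC1 (-1.31 ± 0.16).

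Slides 1 to 3 each carried both groups of the 48 h comparisons, 2 of siRNA and 1 of media with nontargeting siRNA. On each slide all 14 members called in growth media, all 15 called in differentiation media and all 16 called between media went the same way. At least 12 of 14, 15 of 15 and 14 of 16 did so by more than 2-fold. All 15 called at 96 h in growth media went the same way on the 1 slide with both groups, and all 12 called at 96 h in differentiation media on both such slides. Arrays at 24 h were all on slide 4 and in another scan, so time and slide cannot be told apart for the 24 h level, although both siRNA groups shared the slide. With nontargeting siRNA at 96 h, the growth media arrays were on slide 3 and the differentiation media arrays on slides 1 and 2. Media and slide cannot be told apart in that comparison, whose groups also enter the media differences of the siRNA effect at 96 h.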

How the data were processed

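RNA of 29 samples was hybridized to 29 one-colour Agilent arrays, grouped by the labels. The authors deposited intensities, the linear background-subtracted signal of each spot from Agilent Feature Extraction (10.7.3.1 in the submitters' processing notes; the methods name another version). The authors also deposited quantile-normalized log2 values, and all 29 of these columns matched their own array best (lowest correlation 0.99517); they served to choose 1 probe per gene and as an alternative. Genes were named through the RefSeq accession of 31104 probes; 25 members had 1 probe and 10 had 2. Array headers name hg19 in 14 files and no build in 15, so no probe positions are given.

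Tables were read with the data.table package (version 1.17.8) and fits were made with limma (version 3.58.1) in R (version 4.3.3). Outlier spots (0.125% to 0.363% of an array) and control spots were dropped, then signals were put on a log2 scale, averaged per probe (58201) and brought to common quantiles across arrays. A probe entered the test if 2 or more arrays had it well above background, which left 38714 probes. These were fitted with lmFit and eBayes over all 10 groups, with Benjamini-Hochberg adjustment over all of them. The methods' equal-variance t-test was an alternative. Lower bounds compare the bright group's mean with the lowest signal well above background on the dim arrays, or the dim probe's own signal where that was higher. They hold for the chosen processing only, and some alternatives gave smaller changes. The scripts were tested on simulated data. The members and gene lists were chosen with earlier results of these data known. All members may be named; array values are given for those called in growth media and for isoform pairs (and for PGK1, TPI1 and PFKFB2, chosen after their values were seen), and from each other list values for up to 3 genes with the largest called changes at 48 h in growth media. Alternatives were another scaling, background correction, filter, probe choice, test, block and leaving out arrays. With 3 arrays per group an exact permutation test cannot go below p = 0.1, so none is given, and the number of arrays limits precision. Some genes of the other lists are not reported here by name.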

Additional observations from a re-analysis of the deposited data

Results flagged for a closer look

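The following effects differed by a test of the difference itself. The effect of ZNF148 siRNA differed between media for 18 members at 48 h and for 9 at 96 h, and between 96 h and 24 h in growth media for 11 members (23% of all genes). At 48 h the difference, differentiation minus growth media, was -2.55 for PFKFB2 (adjusted p = 1.05e-12), 1.75 for TPI1 (adjusted p = 4.84e-10), 1.79 for ENO1 (adjusted p = 9.39e-10) and 2.22 for LDHA (adjusted p = 5e-14). In each of these 4 genes the effects in the separate media had opposite signs. At 96 h it was 1.82 for PFKP (from -1.11 to 0.71, adjusted p = 1.6e-09) and 1.79 for LDHA (from -0.53 to 1.26, adjusted p = 8.77e-12).

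Between 24 and 96 h in growth media the effect moved by 1.48 for PFKM (from -1.01 to 0.47, adjusted p = 1.65e-10) and by 2.32 for GYS1 (from -0.88 to 1.43, adjusted p = 8.92e-08). It moved by -1.46 for ENO1 (from 0.07 to -1.39, adjusted p = 4.47e-08), 6.31 for FBP2 (adjusted p = 1.95e-07), 8.19 for PYGM (adjusted p = 0.000252) and 2.50 for PHKG1 (adjusted p = 2.1e-07). FBP2 was well above background on no array of either group at 24 h or of nontargeting siRNA at 96 h, and PYGM on 1 of these 8 arrays, so that 6.31 and 8.19 depend on the background level and are no exact sizes. The 24 h arrays were on a slide and in a scan of their own, which held both siRNA groups. Groups of 2 or 3 arrays were too small for a test of outlying arrays.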

How the results depend on the processing

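Over 2727 alternative values of called members, 2630 kept their direction and call, 97 lost the call and none changed direction. These values include the setting with no fold threshold, which keeps every call by construction. The settings also share arrays, so the tally is not a set of independent checks. Of 249 alternative counts of called members, 238 stayed within 1.5 times. With no fold threshold the counts were 17 at 24 h, 30 at 48 h and 30 at 96 h in growth media, 30 and 26 in differentiation media, 28 between media at 96 h, 24 for effects differing between 24 and 96 h, 22 for effects differing between media at 96 h, and 55 summed over the 4 comparisons of 48 with 96 h (11 with the threshold). Over all genes the shares were 32.6%, 58.2% and 56.6% in growth media and 65.1% and 59.4% in differentiation media. They were 43.9% between media at 96 h, 47.3% for effects differing between 24 and 96 h, and 31.8% for effects differing between media at 96 h. In the comparisons of 48 with 96 h they ranged from 2.4% to 42.6%. With the methods' t-test and Benjamini-Hochberg adjustment 9 members were called at 48 h in growth media (19.3% of all genes), and 13 at its unadjusted threshold (23.1%). With normexp the time comparisons gave 7. Fitted on only the arrays of the comparison, ENO3 (adjusted p = 0.0573) and PYGM (adjusted p = 0.0505) lost their calls at 48 h in growth media.

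Leaving out 1 array at a time gave 3 to 3 members at 24 h, 14 to 15 at 48 h and 14 to 15 at 96 h in growth media, 15 to 18 and 11 to 12 in differentiation media, 16 to 17 and 15 to 17 between media, 11 to 12, 15 to 18 and 8 to 10 for differing effects, and 8 to 12 over time. Same-numbered arrays did not deviate together (correlations -0.14 to 0.12), so the replicate numbers are not taken to pair samples. With the replicate number as a block, 3, 14 and 15 members were called in growth media and 15 and 12 in differentiation media, the same counts as without it, with 10 over time and 17 for effects differing between media at 48 h. Slide as a fixed block, chosen after seeing the data, gave 14, 15, 15 and 13 at 48 and 96 h, and the isoform pair differences without nontargeting replicate 1 were also added then. Dim probes limit PFKFB1, SLC2A4, FBP2 and PYGM, whose fitted changes against groups below background have no exact size.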
